A study of Mus musculus with 9 samples.

Results

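A set of 10 genes of the endothelial lining of retinal vessels and of the blood-retina barrier was followed in mice with laser-induced retinal vein occlusion (RVO). They were chosen by gene symbol, and all 10 were found among the 48587 genes of the count table. The genes were Cdh5, Pecam1 and Sox17 for endothelial identity, Cldn5 and Ocln for tight junctions, Mfsd2a, Abcb1a and Slco1c1 for transport across the barrier, and Plvap and Esm1 for vessels that leak or sprout. RNA of whole retinas of C57BL/6J mice aged 12 weeks was sequenced in 9 pools, 3 in each of 3 groups, and each pool held 6 retinas taken from 6 mice. RVO eyes had their large veins closed by laser after injection of the photosensitiser eosin Y at 200 mg/kg, with 3 to 6 applications of 50 mW for 2.5 s per vein and a spot of 50 µm. Control laser-treated eyes were the fellow eyes of the same injected mice and received the same laser scheme between the large vessels, and both were taken at d2. Untreated eyes came from mice that had received no laser. Pools are not single mice, an occluded vein can re-open, and the sources do not say whether RVO and control pools of the same number held the eyes of the same mice.

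Endothelial cells of retinal vessels are sealed by tight junctions, take up little by vesicles and carry dedicated transporters, and together these properties form the inner blood-retina barrier. Norrin, made by glia, acts through its receptor Fzd4 and beta-catenin on these cells and keeps the barrier program running, with Sox17, Cldn5 and Mfsd2a on the side of the sealed vessel and Plvap on the side of the leaky vessel. Vessels that sprout form tip cells, of which Esm1 is a widely used marker. The RNA came from whole retina, and in such samples fewer cells of a type and less RNA per cell cannot be told apart.

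The libraries held 12377572 to 15245869 counts in untreated, 18897218 to 23419497 in control and 21022997 to 28993921 in RVO pools. Levels are given as CPM, the counts of a gene relative to the total of its library, scaled by the trimmed mean of M-values (TMM), fold changes come from edgeR's quasi-likelihood test, and a gene was called at a Benjamini-Hochberg adjusted p under 0.01 over all genes tested. All 6 rod markers were detected in each pool and their summed level was 38110 to 75971 CPM, as the label retina implies. RVO replicate 2 stood apart from the other RVO pools. Over all tested genes its root mean square log2 difference from the control pools was 0.50, against 0.81 for RVO replicate 1 and 0.71 for RVO replicate 3. On the log2 scale its value lay nearer to the control mean than to the mean of the other RVO pools for 7 of the 10 genes. For these 10 genes, each comparison with RVO is therefore also given without it where that changes a call. For lists of other genes this is given in part.

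Members rose and fell in both laser-treated groups, and the share called against untreated lay near that of all genes. In control laser-treated eyes 5 of the 9 genes tested rose against untreated eyes (Cldn5, Cdh5, Sox17, Plvap and Pecam1) and 1 fell (Slco1c1). Over all 16066 genes tested in that comparison 52.4% were called, 27.2% higher and 25.2% lower. In RVO eyes 5 of 10 rose (Esm1, Cdh5, Mfsd2a, Plvap and Pecam1) and 1 fell (Slco1c1), beside 52.1% of 16380 genes, 27.4% higher and 24.6% lower. Between RVO and control laser-treated eyes edgeR called 1 gene, Sox17, which was lower in RVO, and 0 higher, beside 3.34% of 16874 genes, 2.7% higher and 0.634% lower. At an unadjusted p under 0.05 edgeR put 2 genes higher and 3 lower there, and DESeq2 called 1 higher and 3 lower at an adjusted p under 0.01, beside 23.9% of all genes. Without RVO replicate 2, edgeR called 5 of the 10 genes, 2 higher (Mfsd2a and Esm1) and 3 lower (Cldn5, Abcb1a and Sox17), beside 36.4% of all genes. Both comparisons with untreated eyes share the same 3 untreated pools. The calls in RVO against untreated numbered 3 without RVO replicate 3, untreated replicate 1 or untreated replicate 2, with Mfsd2a, Plvap and Slco1c1 lost. They numbered 4 without untreated replicate 3, 6 without RVO replicate 1 and 7 without RVO replicate 2. The share of all genes in these fits was not counted.

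**Figure D1:**
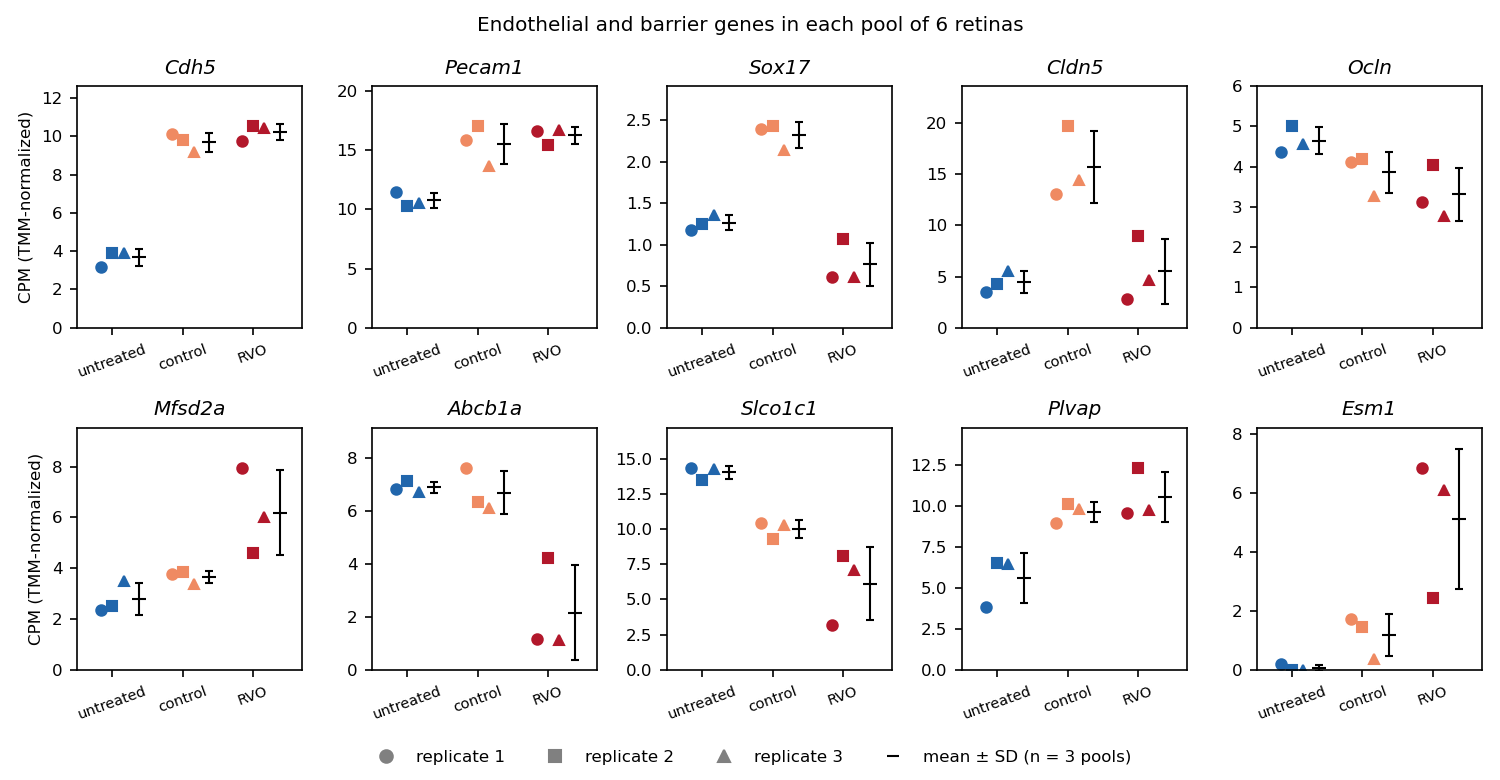
TMM-scaled CPM (vertical axis, linear from 0, 1 panel per gene) of the 10 genes in each of the 9 pools, by group on the horizontal axis, with the marker shape giving the replicate and, beside the points, the group mean with bars of 1 SD (n = 3 pools). Cldn5 lay at 13.1 to 19.7 CPM in the control pools and at 2.77 to 9.0 in the RVO pools, whereas Cdh5 lay at 9.16 to 10.5 in all 6 laser-treated pools.

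Cdh5 encodes VE-cadherin, the adhesion molecule of endothelial cell contacts (GRCm38, chromosome 8, 104101625 to 104144511, plus strand). Its level was 3.18, 3.91 and 3.93 CPM in untreated replicates 1 to 3, 10.1, 9.80 and 9.16 CPM in control and 9.75, 10.5 and 10.4 CPM in RVO pools. All 6 laser-treated pools lay above all untreated pools, and the RVO and control pools overlapped. Cdh5 rose 2.66-fold in control laser-treated eyes (log2 1.41, SE 0.14, edgeR adjusted p = 2.09e-06) and 2.84-fold in RVO eyes (log2 1.5, SE 0.15, edgeR adjusted p = 8.66e-05). The difference between RVO and control was 0.08 on the log2 scale (SE 0.11, edgeR adjusted p = 0.593). Both calls against untreated held with each pool left out in turn.

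Pecam1 encodes CD31, a junction molecule of endothelial cells that leukocytes and platelets also carry (chromosome 11, 106654217 to 106750628, minus strand). Pecam1 stood at 11.4, 10.3 and 10.5 CPM in untreated, 15.9, 17.0 and 13.7 CPM in control and 16.6, 15.4 and 16.8 CPM in RVO pools. Again no laser-treated pool reached down to the untreated range. Its rise was smaller than that of Cdh5, 1.46-fold in control (log2 0.55, SE 0.11, edgeR adjusted p = 0.000841) and 1.55-fold in RVO eyes (log2 0.63, SE 0.11, edgeR adjusted p = 0.0013). RVO and control pools overlapped, with a log2 difference of 0.07 (SE 0.11, edgeR adjusted p = 0.64). All 10 leukocyte markers were detected. Their summed level was 39.8 to 55.4 CPM in untreated, 90.7 to 119 CPM in control and 175 to 204 CPM in RVO pools. Against untreated, 7 of 10 were called higher in control and 9 of 10 in RVO eyes. Between RVO and control the median log2 change of these markers was 0.88. There edgeR called 2 higher and 0 lower, with 8 higher and 0 lower at an unadjusted p under 0.05. Without RVO replicate 2 it called 7 higher and 0 lower, beside 36.4% of all genes. Platelet markers summed to 8.44 to 10.4 CPM in untreated, 18.5 to 21.4 in control and 21.5 to 25.4 in RVO pools. The part of leukocytes and platelets in the Pecam1 result was not tested.

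Sox17 encodes a transcription factor of arterial and barrier endothelium (chromosome 1, 4490931 to 4497354, minus strand). In untreated pools Sox17 stood at 1.18, 1.25 and 1.36 CPM, in control pools at 2.40, 2.43 and 2.13 CPM, and in RVO pools at 0.605, 1.06 and 0.616 CPM. The 3 groups did not overlap, with control pools on top and RVO pools at the bottom. Sox17 rose 1.84-fold in control laser-treated eyes (log2 0.88, SE 0.22, edgeR adjusted p = 0.00384). In RVO eyes the log2 difference from untreated was −0.71 (SE 0.30) and was not called (edgeR adjusted p = 0.0676). RVO eyes were 3.05-fold lower than control laser-treated eyes (log2 −1.61, SE 0.26, edgeR adjusted p = 0.00996), the single difference among the 10 genes called between the 2 laser schemes. That call stood just under the threshold. It was lost without any 1 pool other than RVO replicate 2 (edgeR adjusted p 0.0245 to 0.0567), with DESeq2 size factors (0.0106) and with the replicate number as a block (0.0314). The call in control eyes was lost without control replicate 1 or 2 or any untreated pool (edgeR adjusted p 0.0104 to 0.0168), in a fit of all 9 libraries (0.0132) and by DESeq2 (0.0255). Gm37587, which overlaps 804 bases of Sox17 on the other strand, had at most 1 count in any library.

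Cldn5 encodes claudin-5, the main claudin of tight junctions in brain and retinal endothelium (chromosome 16, 18776847 to 18778262, plus strand). Its level was 3.45, 4.30 and 5.57 CPM in untreated, 13.1, 19.7 and 14.4 CPM in control and 2.77, 9.0 and 4.71 CPM in RVO pools. Each control pool lay above every other pool, and the RVO pools spanned the untreated range. Cldn5 rose 3.53-fold in control laser-treated eyes (log2 1.82, SE 0.19, edgeR adjusted p = 4.35e-06), the largest fold among the 9 members tested in that comparison. In RVO eyes the log2 difference from untreated was 0.32 (SE 0.41, edgeR adjusted p = 0.514), and it was −0.24 without RVO replicate 2. RVO minus control was −1.53 (SE 0.39) and was not called (edgeR adjusted p = 0.0232). Without RVO replicate 2, the RVO pool with the most Cldn5, this difference was −2.11 and was called (edgeR adjusted p = 0.000127).

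Ocln encodes occludin, a membrane protein of tight junctions that is not limited to endothelium (chromosome 13, 100496507 to 100552718, minus strand). Ocln stood at 4.36, 5.00 and 4.57 CPM in untreated, 4.12, 4.19 and 3.26 CPM in control and 3.12, 4.03 and 2.77 CPM in RVO pools. Control and RVO pools lay under the untreated pools but overlapped each other. None of the differences was called: the log2 value was −0.25 (SE 0.17, edgeR adjusted p = 0.196) in control and −0.46 (SE 0.20, edgeR adjusted p = 0.0683) in RVO eyes against untreated, and −0.22 (SE 0.20, edgeR adjusted p = 0.421) between them. Claudin-5 and occludin transcripts, both of the tight junction, thus had different patterns over the 3 groups.

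Mfsd2a encodes the lysophosphatidylcholine transporter through which docosahexaenoic acid enters brain and retina, and it holds down vesicle traffic in barrier endothelium (chromosome 4, 122946850 to 122961188, minus strand). Mfsd2a was 2.36, 2.50 and 3.50 CPM in untreated, 3.75, 3.84 and 3.39 CPM in control and 7.93, 4.59 and 6.02 CPM in RVO pools. The RVO pools lay above all others. The rise in RVO eyes was 2.26-fold (log2 1.18, SE 0.26, edgeR adjusted p = 0.00447). It was lost without RVO replicate 3 (edgeR adjusted p = 0.0140), untreated replicate 1 (0.0242) or untreated replicate 2 (0.0245). Control eyes differed from untreated by 0.39 (SE 0.19, edgeR adjusted p = 0.0909). RVO minus control was 0.77 (SE 0.22, edgeR adjusted p = 0.0334), and 0.93 without RVO replicate 2, where it was called (edgeR adjusted p = 0.0017).

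Abcb1a encodes P-glycoprotein, the efflux pump that keeps many drugs out of brain and retina (chromosome 5, 8660077 to 8748575, plus strand). Its level was 6.81, 7.11 and 6.71 CPM in untreated, 7.60, 6.32 and 6.11 CPM in control and 1.15, 4.20 and 1.10 CPM in RVO pools. Untreated and control pools overlapped, and every RVO pool lay under them, RVO replicate 2 the least. Control minus untreated was −0.03 on the log2 scale (SE 0.13, edgeR adjusted p = 0.875), and 0.15 when libraries were scaled by total count alone. In RVO eyes the log2 difference was −1.66 from untreated (SE 0.47, edgeR adjusted p = 0.0139) and −1.65 from control (SE 0.48, edgeR adjusted p = 0.0346), and neither was called. Without RVO replicate 2 both were called, at −2.55 (edgeR adjusted p = 8.85e-08) and −2.58 (edgeR adjusted p = 1.21e-05). Gm42686, which overlaps 553 bases of Abcb1a on the other strand, had at most 3 counts in any library.

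Abcb1b is a close paralog that encodes a second mouse P-glycoprotein, and it was looked up after the values of Abcb1a had been seen. Abcb1b was 1.45, 0.859 and 1.00 CPM in untreated, 1.76, 2.12 and 1.38 CPM in control and 5.67, 3.86 and 4.92 CPM in RVO pools, the opposite order to Abcb1a. It rose 4.51-fold in RVO against untreated eyes (edgeR adjusted p = 0.000231) and 2.77-fold against control (edgeR adjusted p = 0.00989). Abcb1a gave 82.4, 89.2 and 87.0% of the CPM of both genes in untreated, 81.2, 74.9 and 81.6% in control and 16.8, 52.1 and 18.2% in RVO pools. The sum of both was 7.71 to 8.26 CPM in untreated, 7.49 to 9.36 in control and 6.02 to 8.07 in RVO pools. The overlap of RVO with each other group came from RVO replicate 2 alone (8.07 CPM). RVO replicates 1 and 3, at 6.82 and 6.02 CPM, lay under all untreated and control pools. The sequences of the paralogs are alike and how reads that match both were counted is not given in the sources used here, so the split between them is uncertain.

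Slco1c1 encodes Oatp1c1, a carrier of thyroxine at the brain and retinal barrier (chromosome 6, 141524368 to 141570177, plus strand). Slco1c1 was 14.3, 13.5 and 14.3 CPM in untreated, 10.4, 9.30 and 10.3 CPM in control and 3.15, 8.07 and 7.12 CPM in RVO pools. The groups were ordered without overlap, with untreated highest and RVO lowest. It fell by 0.47 on the log2 scale in control (SE 0.10, edgeR adjusted p = 0.0011) and by 1.18 in RVO eyes (SE 0.30, edgeR adjusted p = 0.00875) against untreated. The call in RVO was lost without RVO replicate 3 or any untreated pool (edgeR adjusted p 0.0186 to 0.0322) and, at a log2 value of −0.97, with scaling by library size alone (0.0182). The call in control was lost with that scaling, at −0.30 (edgeR adjusted p = 0.0195), and in a fit of all 9 libraries, at −0.49 (0.141). RVO minus control was −0.72 (SE 0.31, edgeR adjusted p = 0.109).

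Plvap encodes the diaphragm protein of fenestrae and caveolae, carried by the choriocapillaris and scarce in barrier vessels (chromosome 8, 71497765 to 71511752, minus strand). Plvap was 3.81, 6.49 and 6.43 CPM in untreated, 8.95, 10.1 and 9.79 CPM in control and 9.56, 12.3 and 9.72 CPM in RVO pools. Both laser-treated groups lay above untreated and overlapped each other. Plvap rose 1.73-fold in control (log2 0.79, SE 0.17, edgeR adjusted p = 0.00114) and 1.91-fold in RVO eyes (log2 0.94, SE 0.22, edgeR adjusted p = 0.00532), and RVO minus control was 0.13 (SE 0.14, edgeR adjusted p = 0.484). The call in RVO was lost without RVO replicate 3 or any untreated pool (edgeR adjusted p 0.0130 to 0.0136). Markers of pigment epithelium and melanocytes, which lie with the choriocapillaris outside the retina, summed to 633 to 688 CPM in untreated, 536 to 599 in control and 483 to 1006 in RVO pools, with all 11 detected. Their median log2 change against untreated was −0.38 in control and 0.82 in RVO eyes, and 0.07 in RVO eyes without RVO replicate 2, where edgeR called 2 higher and 4 lower. By edgeR 0 of the 11 were called higher and 4 lower in control eyes (1 and 5 at an unadjusted p under 0.05) and 0 higher and 2 lower in RVO eyes (4 and 2), and DESeq2 called 1 higher in each. Their part in the Plvap result was not tested.

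Esm1 encodes endocan, a secreted proteoglycan of tip cells (chromosome 13, 113209659 to 113218098, plus strand). Its counts were 2, 0 and 0 in untreated, 38, 29 and 9 in control and 215, 57 and 139 in RVO pools. In CPM these were 1.72, 1.47 and 0.377 in control and 6.85, 2.42 and 6.11 in RVO pools, with 0.182 in the single untreated pool that had counts. Each RVO pool lay above each control pool and each control pool above each untreated pool, although untreated libraries were at or under the floor of 3 counts. The mean of the RVO pools was 18.8-fold the highest untreated floor, a lower bound for the fold of the means. This rise was called (edgeR adjusted p = 0.000268). The mean of the control pools was 4.36-fold that floor, but control replicate 3, at 0.377 CPM, lay close to it (0.272 CPM). Esm1 did not pass the filter on low counts in the comparison of control with untreated eyes and was not tested there. In alternative settings that kept Esm1, its rise in control eyes was called without the filter, without control replicate 3 and without untreated replicate 1. It was not called in a fit of all 9 libraries or without untreated replicate 2 or 3. RVO eyes held 4.39-fold more than control eyes (log2 2.14, SE 0.55), which was not called (edgeR adjusted p = 0.0244). It was called without RVO replicate 2 (log2 2.46, edgeR adjusted p = 0.000639).

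**Figure D2:**
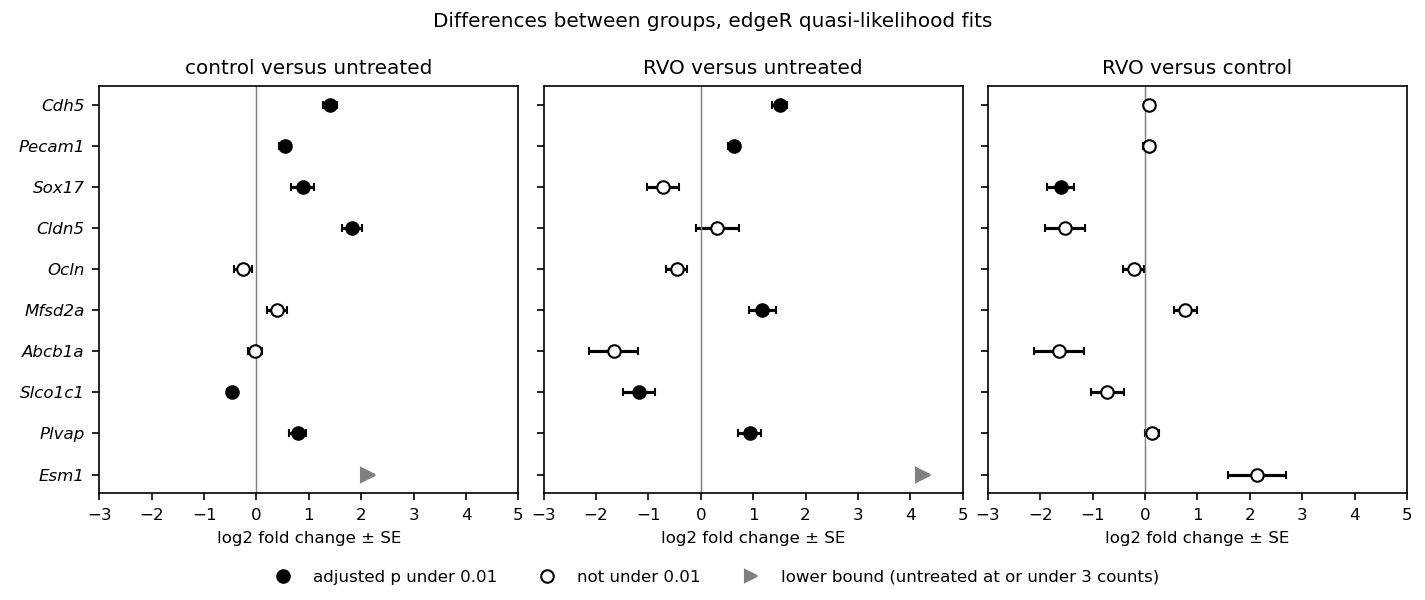
Log2 fold changes of the 10 genes (vertical axis) in the 3 comparisons (panels), with horizontal bars of 1 SE, filled points for an adjusted p under 0.01 by edgeR and a grey triangle at the lower bound where the untreated pools of Esm1 held at most 3 counts. Cdh5, Pecam1 and Plvap lay to the right of 0 in both comparisons with untreated eyes and near 0 between RVO and control, where Cldn5, Abcb1a and Sox17 lay at −1.53 to −1.65.

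Promoters are shown for Mfsd2a and Esm1, whose RVO pools all lay above the control pools, and for Cldn5, whose RVO pools all lay below, because the signs of their differences were opposite, although none of these 3 differences was called. The windows are the 250 bases before the transcript start in RefSeq (GRCm38.p6), at chr4:122961189-122961438 on the minus strand, chr13:113209409-113209658 on the plus strand and chr16:18776597-18776846 on the plus strand. Capitals mark ACGTG or GCGTG, the core bound by hypoxia-inducible factors, on either strand (CACGT and CACGC when read on the opposite one).
Mfsd2a: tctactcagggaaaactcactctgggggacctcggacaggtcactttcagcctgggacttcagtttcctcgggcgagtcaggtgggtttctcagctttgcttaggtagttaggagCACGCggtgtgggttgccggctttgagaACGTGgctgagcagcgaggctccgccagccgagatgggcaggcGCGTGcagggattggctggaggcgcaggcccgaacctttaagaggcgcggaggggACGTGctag
Esm1: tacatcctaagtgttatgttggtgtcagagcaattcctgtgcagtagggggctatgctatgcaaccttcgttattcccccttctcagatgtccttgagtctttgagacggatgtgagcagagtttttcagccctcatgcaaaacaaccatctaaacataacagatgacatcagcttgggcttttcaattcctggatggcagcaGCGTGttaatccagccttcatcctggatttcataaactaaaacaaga
Cldn5: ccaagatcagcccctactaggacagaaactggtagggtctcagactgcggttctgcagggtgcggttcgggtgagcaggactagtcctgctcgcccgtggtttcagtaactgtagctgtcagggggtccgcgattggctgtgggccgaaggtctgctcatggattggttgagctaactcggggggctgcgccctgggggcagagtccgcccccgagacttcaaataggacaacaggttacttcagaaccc
The Mfsd2a window held 4 matches, the Esm1 window 1 and the Cldn5 window 0. Of 32851 promoter windows of the same length 38.6% held at least 1 match and 2.58% held at least 4. RefSeq windows were also at hand for Ocln, Abcb1a and Slco1c1, and the Abcb1a and Slco1c1 windows held 0 matches while both Ocln windows held 1. The Abcb1a window lies before a RefSeq start at 8567091, far upstream of the GENCODE gene start at 8660077. The bases before that GENCODE start were not scanned. The windows were also scanned for the ETS core GGAA, for SOX cores and for AP-1 sites, which are not marked. The Slco1c1 window held 8 ETS cores, and 1.45% of windows held at least 8. The Abcb1a window held 5, the Esm1 window 3, the Mfsd2a window 2, the Ocln windows 2 and 1 and the Cldn5 window 0. A SOX core was found once each in Abcb1a and Slco1c1, and no window of these genes held an AP-1 site. A match is a run of letters and not a shown binding site.

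The pools were also compared without a test. Against untreated, all control pools lay above all untreated pools for 6 genes and below for 2, and RVO pools lay above for 5 and below for 4, beside 70% and 73.4% of all genes with no overlap. Between RVO and control, 2 genes lay wholly higher in RVO (Mfsd2a and Esm1) and 4 wholly lower (Cldn5, Abcb1a, Slco1c1 and Sox17), beside 52.5% of all genes. At an adjusted p under 0.05, edgeR put 2 of the 10 higher and 3 lower, beside 17.5% and 17.1% of genes (34.6% in either direction). The median log2 change of the members tested was 0.55 in control and 0.47 in RVO eyes against untreated and −0.07 between RVO and control, where the medians of all genes tested were 0.01, 0.01 and 0.02.

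The order of the genes by level per length of transcript also moved. In untreated eyes Cldn5 and Plvap had the highest levels, 3.14 and 2.81 CPM per kb, and their pools overlapped, as did those of Plvap and Slco1c1 at 2.71. In control laser-treated eyes Cldn5 stood alone on top at 11.1 CPM per kb, followed by Plvap at 4.84. In RVO eyes Plvap had 5.29 and Cldn5 3.88 CPM per kb, again with overlapping pools. Cdh5 was eighth in the order in untreated eyes at 0.873 CPM per kb, and its level was 2.31 in control and 2.44 in RVO eyes. Sox17 had 0.265 CPM per kb in untreated, 0.486 in control and 0.159 in RVO eyes, the lowest mean of the 10 in both laser-treated groups, with pools that overlapped those of Esm1 in control and of Abcb1a in RVO eyes.

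Each other gene was also taken relative to Cdh5 in the same pool, so that members were compared within 1 library. With 3 pools against 3 the exact two-sided permutation test over pools cannot go below p = 0.1, so these ratios cannot reach 0.05 and are given as sizes with their overlap. Against untreated, the log2 ratio to Cdh5 was lower without overlap for 7 of 9 genes in RVO eyes, from −0.54 for Plvap to −3.46 for Abcb1a, and higher for Esm1. In control eyes it was lower for 7 of 9, from −0.53 for Sox17 to −1.90 for Slco1c1, and the Cldn5 ratio overlapped the untreated pools (0.42). Between RVO and control, Cldn5 was lower by 1.74 and Sox17 by 1.73 relative to Cdh5, Abcb1a differed by −2.01 and Slco1c1 by −0.90, while Mfsd2a was higher by 0.64 and Esm1 by 2.17, all without overlap. With Pecam1, which rose less than Cdh5, as the reference the control ratios against untreated were higher for 4 and lower for 3 of 9 genes without overlap, with Sox17 at 0.35, Cldn5 at 1.30 and Cdh5 at 0.88, so the direction depends on the reference. The RVO ratios against untreated were then higher for 2 and lower for 4, and those of RVO against control higher for 2 and lower for 4, as with Cdh5. Pecam1 (−0.01) and Plvap (0.04) kept close to Cdh5 in that comparison. Each of these ratios without overlap had an exact permutation p = 0.1, or 0.15 after Benjamini-Hochberg adjustment over the 9 ratios of RVO against control.

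**Figure D3:**
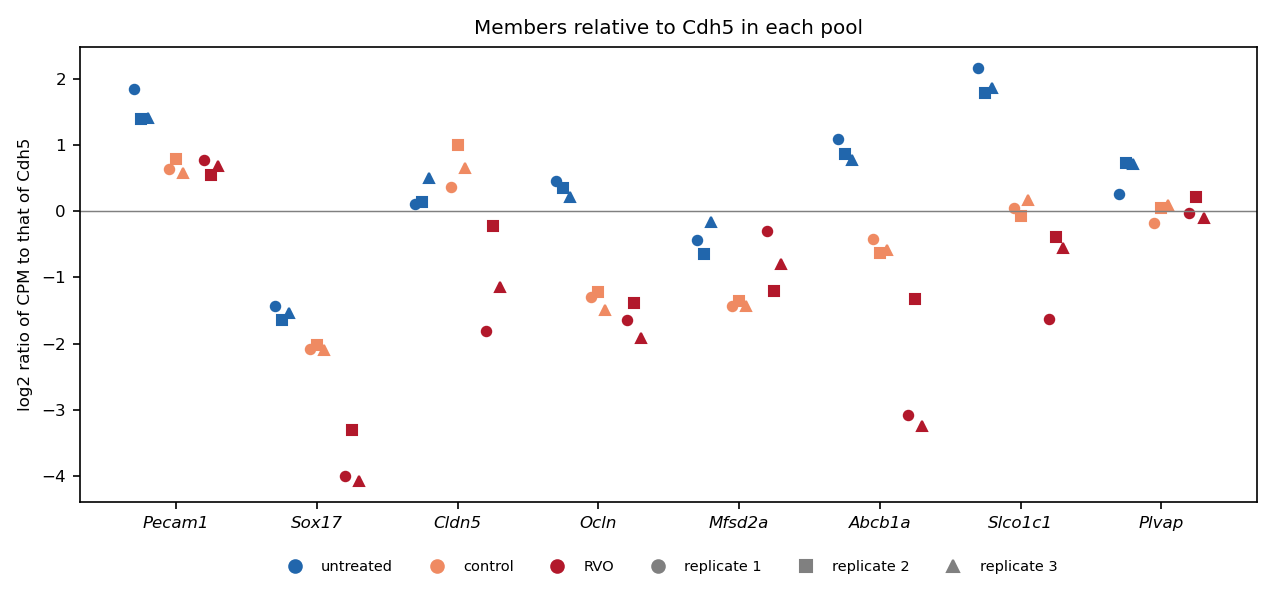
Log2 ratio of the CPM of each gene to that of Cdh5 in the same pool (vertical axis), with colour for the group and shape for the replicate; Esm1 is left out because 2 untreated pools had 0 counts. The RVO pools of Sox17, Abcb1a and Slco1c1 lay under all other pools, and those of Pecam1 overlapped the control pools.

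Other genes of the same functions were read from lists set by known role. Of 26 other pan-endothelial genes 25 were tested, and in control laser-treated eyes 16 rose and 0 fell (median log2 0.96) by edgeR. In RVO eyes 7 rose and 0 fell (median 0.68), but without RVO replicate 2 edgeR called 8 higher and 4 lower. The medians of the lists in this section stand beside a median over all genes of 0.01 or 0.02. The calls against untreated stand beside 52.4% of all genes in control (27.2% higher, 25.2% lower) and 52.1% in RVO eyes (27.4% higher, 24.6% lower). Between RVO and control they stand beside 3.34% of all genes by edgeR (2.7% higher, 0.634% lower) and 23.9% by DESeq2. Without RVO replicate 2 that share by edgeR was 36.4%. For the pan-endothelial genes, between RVO and control edgeR called 0 in either direction (median −0.56, and −0.89 without RVO replicate 2), where 3 were higher and 12 lower at an unadjusted p under 0.05 and DESeq2 called 3 higher and 9 lower. Of genes lower against untreated, edgeR put 3 in RVO and 0 in control eyes at an unadjusted p under 0.05, and DESeq2 called 1 and 0. Vwf, the von Willebrand factor stored by endothelium, was 3.26 ± 0.651 CPM in untreated, 24.6 ± 2.44 in control and 10.5 ± 5.74 in RVO eyes (SD, n = 3 pools each), and its rise was called in both (7.58-fold and 3.26-fold). Cd93, of the same list, rose from 2.76 ± 0.663 CPM to 12.2 ± 3.88 in control and 14.2 ± 1.29 in RVO eyes. The part of other cells, such as leukocytes, in the Cd93 rise was not tested.

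Of 11 other tight junction genes 3 rose and 3 fell in control and 3 rose and 2 fell in RVO eyes against untreated, near the share of all genes. Lsr, the angulin of tricellular junctions, rose 2.87-fold and 3.32-fold, and Jam2, a junctional adhesion molecule, fell by 1.09 on the log2 scale in RVO eyes. Cgnl1, a junction scaffold, rose 1.44-fold in RVO over control (edgeR adjusted p = 0.00999), the single call of 11 there. That call was lost with DESeq2 size factors, DESeq2 itself called 1 higher and 2 lower, and edgeR without RVO replicate 2 called 2 higher and 2 lower. Of 15 other barrier transporters 4 rose and 3 fell in control eyes, and 5 rose and 6 fell in RVO eyes, with a median log2 change of −0.55. Slco1a4, an organic anion carrier of barrier endothelium, fell by 1.60 in RVO eyes (edgeR adjusted p = 0.00954), and Slc19a3, a thiamine transporter, fell by 1.98. Slc2a1, which encodes the glucose carrier Glut1 and is also used by other retinal cells, rose 1.99-fold in RVO over control (edgeR adjusted p = 0.00758), from 283 ± 16.4 to 562 ± 94.1 CPM (SD, n = 3).

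Among 19 genes of Norrin and Wnt signalling 7 rose and 2 fell in control and 6 rose and 3 fell in RVO eyes, of 18 tested against untreated, again near the share of all genes. Ndp, which encodes Norrin itself, rose from 9.26 ± 0.0783 CPM in untreated to 21.9 ± 4.52 in control and 41.8 ± 5.47 in RVO eyes (SD, n = 3), 2.39-fold and 4.61-fold. Its receptor gene Fzd4 rose 1.37-fold in RVO over control laser-treated eyes (edgeR adjusted p = 0.00996), the single call of the list in that comparison. It was lost with DESeq2 size factors, and the list had 4 higher and 3 lower by DESeq2 and 4 higher and 6 lower by edgeR without RVO replicate 2. Sox18, a relative of Sox17, rose 2.82-fold in control eyes, and Foxq1, a barrier transcription factor, fell by 2.16 on the log2 scale in RVO eyes.

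Of 6 caveolae genes, which share vesicle traffic with Plvap, 4 rose and 1 fell in control and 3 rose and 1 fell in RVO eyes. Ptrf, the older symbol of Cavin1, rose 2.21-fold and 3.29-fold. Sdpr, the older symbol of Cavin2, fell by 1.11 on the log2 scale in control eyes. Prkcdbp, the older symbol of Cavin3, rose 1.99-fold in RVO over control (edgeR adjusted p = 0.00944), the single call of 6 there. That call was lost with DESeq2 size factors, and DESeq2 itself called 2 higher and 0 lower. Of the 16 other genes of tip cells and immature vessels 14 were tested against untreated, and 10 rose in control and 11 in RVO eyes, with medians of 1.17 and 1.48. With all pools none was lower in either by edgeR, at an unadjusted p under 0.05 too, nor by DESeq2, whereas 1 was called lower in RVO eyes without RVO replicate 2. Igfbp3, a binding protein of insulin-like growth factors, rose 4.01-fold and 10.8-fold. Apln, the tip cell ligand apelin, rose 11.1-fold in RVO eyes against untreated and 4.69-fold against control (edgeR adjusted p = 0.00679), the same direction as Esm1. Without RVO replicate 2, edgeR called 36.4% of all genes between RVO and control. Among the pan-endothelial genes it then called 2 higher and 12 lower, among the transporters 4 higher and 6 lower and among the tip cell genes 6 higher and 2 lower.

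**Figure D4:**
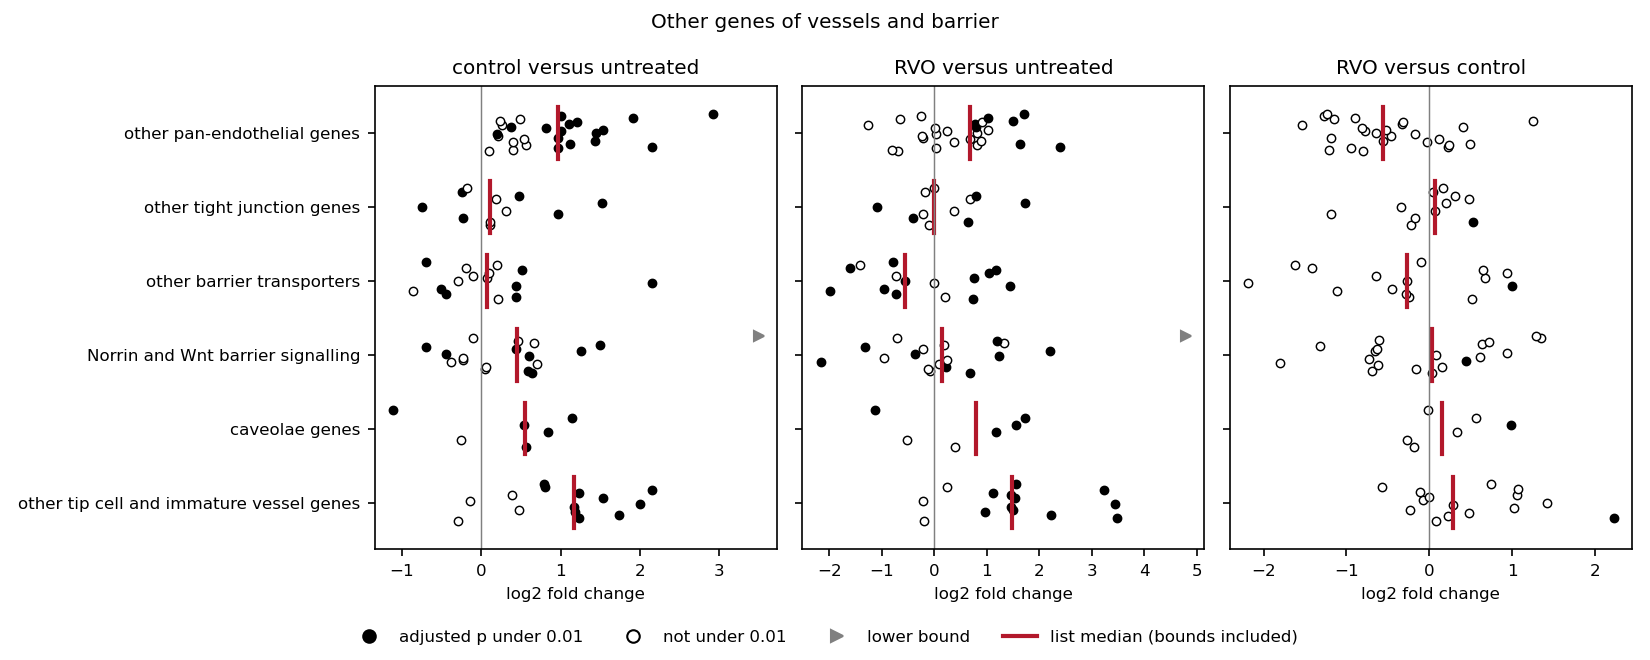
Log2 fold changes of the other genes in 6 lists (rows) for the 3 comparisons (panels), each point a gene, filled where the adjusted p by edgeR was under 0.01, a grey triangle for the lower bound of Wnt7a, which had 0 counts in untreated pools, and a bar at the list median. The pan-endothelial median lay at 0.96 for control against untreated and at −0.56 for RVO against control, and the tip cell median lay above 1 in both comparisons with untreated.

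Markers of other cells in or near the samples also moved with the groups. Platelet markers, of which Gp6 had 0 counts in control and untreated pools and Pf4 in untreated pools, summed to 8.44 to 10.4 CPM in untreated, 18.5 to 21.4 in control and 21.5 to 25.4 in RVO pools. All 11 mural cell markers were detected and summed to 104 to 120 CPM in untreated, 120 to 144 in control and 86.8 to 170 in RVO pools. By edgeR 5 of 11 mural markers rose and 0 fell in control eyes (7 and 0 at an unadjusted p under 0.05, 5 and 0 by DESeq2), and 2 of 10 rose and 2 fell in RVO eyes. Between RVO and control their median was −0.61 and edgeR called 0 of 11 (2 higher and 5 lower at an unadjusted p under 0.05). DESeq2 called 2 higher and 5 lower, beside 23.9% of all genes. Without RVO replicate 2 edgeR called 2 higher and 6 lower (median −1.01), beside 36.4% of all genes. Markers of red cells summed to 14.6 to 15.2, 28.6 to 31.2 and 49.7 to 197 CPM, and those of fibroblasts to 25.1 to 30.9, 29.8 to 39.5 and 58.0 to 72.2 CPM in the same order. Lens markers reached 5328 CPM in RVO replicate 2, against 178 and 479 CPM in RVO replicates 1 and 3. They reached 2740 CPM in control replicate 1 and at most 22.9 CPM in untreated pools, where Lim2 and Mip had 0 counts. Among the RVO pools, replicate 2 also had the highest sums of pigment epithelium and melanocyte (1006 CPM), mural (170 CPM), fibroblast and rod markers. It had the lowest sums of leukocyte, platelet and red cell markers. The summed rod markers were 74197 to 75971 CPM in untreated, 45539 to 56948 in control and 38110 to 41840 in RVO pools. The part of these cells in the values of the 10 genes was not tested.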

How the data were processed

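RNA of 9 pools of retinas was sequenced, and samples were grouped by their titles. The deposited values were raw counts per gene, which the authors made by alignment with STAR 2.5.2b and counting with featureCounts of Subread 1.5.1 (versions per the submitters' processing notes) on the mouse genome with Gencode vM11. The strand setting and the treatment of reads with several matches are not given in the sources used here. The 92 spike-in names had 0 counts and were left out. Each pair of groups was fitted on its own with edgeR 4.0.16 (limma 3.58.1, R 4.3.3): filterByExpr, TMM factors, the quasi-likelihood test and Benjamini-Hochberg adjustment over all genes tested, with calls at 0.01. CPM used TMM factors over all 9 libraries. Bounds against groups at or under 3 counts per library set the mean of the other group against the highest floor among the untreated libraries (0.272 CPM). Floors cover counting error only. Positions and exon lengths came from GENCODE vM21 (GRCm38) and promoters from RefSeq.

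The 10 members and the gene lists were chosen with earlier results of these data known. Named were all members and, of each list and comparison, at most the 2 called genes with the largest absolute log2 fold change among genes with more than 3 counts in at least 1 library of each group. Nothing in the sources says that pools were prepared as independent experiments beyond holding different mice, so p-values measure the spread between pools. Alternatives were library size only, DESeq2 size factors, DESeq2 1.42.0 itself, no filter on low counts, a threshold of 0.05, a fit of all 9 libraries together, the replicate number as a block, and each pool left out in turn. For ratios to Cdh5, Pecam1 as the reference was an alternative.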

Additional observations from a re-analysis of the deposited data

Results flagged for a closer look

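Sox17 was picked out because its difference between RVO and control was called. Its 2 changes against untreated eyes also had opposite signs. It was higher in control laser-treated eyes (log2 0.88) and lower in value in RVO eyes (log2 −0.71, not called), and RVO minus control was −1.61 (SE 0.26, edgeR adjusted p = 0.00996). All 3 control pools lay above and all 3 RVO pools below the untreated pools. Sox17 had 1.36 CPM or less in untreated and RVO pools, so its values rest on few counts.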

How the results depend on the processing

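Over 377 alternative values of single genes, 319 kept their direction and their side of the threshold, 28 lost and 23 gained a call and 7 changed sign. The count of called genes was 6 in both comparisons with untreated eyes and ranged from 3 to 7 for RVO and from 5 to 7 for control with 1 pool left out. With all pools the other settings gave 5 to 7 for RVO and 4 to 7 for control, with 5 higher and 0 lower in both under library size only and 4 higher and 0 lower for control in a fit of all 9 libraries. Between RVO and control the count was 1, beside 3.34% of all genes. It was 0 with DESeq2 size factors, 4 without the filter on low counts, 4 with the DESeq2 test (23.9% of all genes) and 4 in a fit of all 9 libraries. At an adjusted p under 0.05 it was 5 (34.6%). With 1 pool left out it was 0 to 5, where 5 came from leaving out RVO replicate 2 (36.4%). The share of all genes was not counted for the other settings of any comparison, so those counts cannot be weighed against it. The replicate number as a block gave 0 calls between RVO and control, 7 for RVO and 6 for control against untreated. Between RVO and control pools of the same number, the correlations of the deviations from the group means were −0.13, −0.15 and 0.07. Pools with different numbers gave −0.20 to 0.22. With 3 pools per group these values cannot show whether pools of the same number share mice. They were not treated as pairs, since whether they share mice is not known. With 1 pool left out, signs changed for Cldn5 in RVO against untreated (−0.24 to 0.66, negative without RVO replicate 2), for Abcb1a in control against untreated (−0.123 to 0.0406, positive without control replicate 2 or 3), and between RVO and control for Plvap (−0.0122 to 0.184, negative without RVO replicate 2) and Pecam1 (−0.0167 to 0.141, negative without control replicate 3). Abcb1a in control also changed sign with library size only (0.15) and without the filter (0.0016). None of these changes was called. Scaling by library size alone put the median of all genes at 0.22 for RVO and 0.19 for control against untreated. With Pecam1 in place of Cdh5 as the reference, the ratios without overlap went from 0 higher and 7 lower to 4 and 3 for control against untreated, from 1 and 7 to 2 and 4 for RVO against untreated, and stayed at 2 and 4 for RVO against control. The 3 pools per group and the low counts of Esm1 and Sox17 limit what could be detected.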

Other observations

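Genes whose log2 CPM ran most like that of a member over the 9 pools were listed as a description among 14973 genes with a mean of at least 1 CPM. The pools share their groups and libraries. For Cldn5, the gene that peaked in control pools, the 3 most alike were Fam43a, Sorcs2 and Plxna1 (Pearson r 0.985, 0.984 and 0.981, 9 pools), and 211 genes passed 0.9. For Cdh5, which rose in both laser-treated groups, 2111 genes passed 0.9, with Tomm40l first (0.998). For Abcb1a 1423 genes passed 0.9 and Vwc2 was first (0.996). For Sox17 379 genes passed and Inpp4a was first (0.993).

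Lymphatic endothelial markers included Ccl21a, which had 0 counts in all 9 pools. The summed level of the list, 287 to 324 CPM in untreated, 347 to 418 in control and 464 to 494 in RVO pools, includes Prox1, which retinal neurons and glia also express.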
